A study of Zea mays with 16 samples.

Results

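The 100 probes with the brightest signal in RNA of well watered maize kernels were followed across 4 inbred lines and 2 water regimes. They were chosen by signal, out of 1000 probes on the array: for every probe the log2 of intensity minus local background in the well watered channel, with a lower limit of 50, was averaged over 16 arrays, and the 100 highest means were taken. The means that chose the probes are given as a description and were not tested. Kernels (Zea mays) were collected 10 days after pollination from recombinant inbred lines, that is, lines selfed until nearly homozygous, so that a line is 1 genotype. The submitters call RIL60 and RIL78 tolerant of drought; RIL66 and RIL68 are their susceptible lines. Plants stood in an open field in 2 randomised blocks per treatment, with soil moisture near 30% in the well watered plots and near 16% in the stressed plots, where irrigation was cut from 3 weeks before flowering. For each RNA 6 to 9 kernels of 3 ears were pooled. Each of the 4 arrays of a line held poly(A+) RNA of its stressed and of its well watered kernels in different dyes, with dyes swapped on 2 of the 4. These arrays repeat the hybridisation. No label names separate extracts, so the p-values rest on the scatter of hybridisations, and that scatter may be technical. Line and pool cannot be told apart either.

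A kernel at this age is mostly young endosperm, the tissue that stores starch and protein and feeds the embryo, enclosed by maternal pericarp. Endosperm passes from cell division to filling at about this stage, and in filling endosperm transcripts of zeins, the seed storage proteins of maize, rank among the most abundant. Growing tissue also carries large amounts of transcript for ribosomal proteins and other parts of the translation machinery. Which of these, if any, the 100 probes measure is not known here: the files give probe IDs only, and the gene table at hand, with 49888 rows, lists 0 of the 1000 IDs. For the same reason the endosperm identity of the samples could not be checked with marker genes, and no probe sequence is shown. The ranking is one of signal. A probe's brightness also depends on how well it binds, so the order of the probes is not an order of transcript amounts.

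The mean well watered signal of the 100 probes ran from 12.08 to 15.89 on the log2 scale, with a median of 12.85, against a median of 10.25 over all 1000 probes. The brightest was a116pe0894 at 15.89 ± 0.18 (SD over 16 arrays), followed by a116pe0986 at 15.85 ± 0.06, a116pe0575 at 15.51 ± 0.21, a116pe0014 at 15.39 ± 0.12 and a116pe0013 at 15.32 ± 0.35. Probes a116pe0985, a116pe0382 and a116pe0359 stood at 15.28 ± 0.27, 15.26 ± 0.64 and 15.24 ± 0.11, and a116pe0538 and a116pe0500 at 14.93 ± 0.40 and 14.92 ± 1.01. At the lower end the signal falls off gradually, so the hundredth place marks no gap. Probes a116pe0990, a116pe0674 and a116pe0507 took ranks 98 to 100 with 12.09, 12.09 and 12.08. The first 3 probes left out, a116pe0976, a116pe0130 and a116pe0152, had 12.06, 12.04 and 12.04. Between 36.7% and 56.9% of the net well watered signal of an array came from the 100 probes, and between 92% and 100% of their spots lay more than 2 background SDs above the local background in that channel. In the stress channel these ranges were 25.1% to 62.7% and 77% to 100%. All 100 had 2 spots on each of the 16 arrays.

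**Figure D1:**
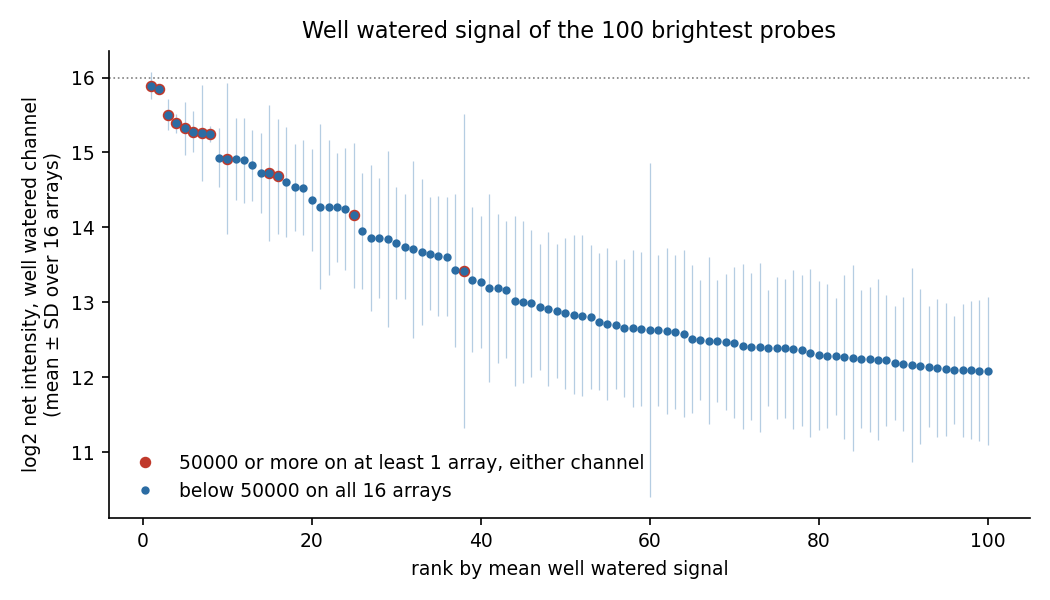
Mean log2 net intensity in the well watered channel against rank for the 100 probes, with bars of 1 SD over 16 arrays. The means fall from 15.89 to 12.08 with no gap at the lower end, and the 13 red points mark probes that reached an intensity of 50000 or more on at least 1 array; the dotted line at 16 lies at the scanner maximum.

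The top of the list lay close to the scanner maximum, where a real difference is compressed. Of the 100 probes, 13 had a spot of 50000 or more in either channel on at least 1 array. For a116pe0986 this held on all 16 arrays and for a116pe0894 on 15. The 10 brightest probes showed fitted stress responses between -0.32 and 0.40 on the log2 scale over the 4 lines. Of the 10, 0 passed the test in any line, where 12.1% of all probes passed in at least 1. With only 10 probes nothing is read from that count. The responses and SDs of these 10 are measured in this range of signal, and how far the scanner limit holds them down was not tested. Not all 10 were steady: a116pe0382 and a116pe0500 had the largest SDs among them. On RIL78 replicates 1 and 2 a116pe0500 read log2 ratios of 0.65 and 0.88.

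Brightness was largely shared by the stressed kernels of the same arrays. Both channels are read from the same spots, so a large overlap is built in. Of the 100 probes, 94 were also among the 100 brightest in the stress channel. The other 6 were a116pe0020, a116pe0058, a116pe0599, a116pe0674, a116pe0743 and a116pe0990. Of these, a116pe0599 had the lowest place in the stress channel, rank 123 against 88 when well watered. In the opposite direction a116pe0507 moved from rank 100 to 72. Choice by the well watered channel alone favours a lower stress place near the cut, so nothing is read from these moves. Taken line by line, 66 of the 100 were among the 100 brightest well watered probes of all 4 lines, 20 of 3 lines, 12 of 2 lines and 2 of 1 line, and 38 probes outside the list entered the top 100 of at least 1 line. Within a line, between 90 and 92 of the 100 brightest well watered probes were also among its 100 brightest under stress.

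The members were unevenly spread over the probe numbers. Numbers from 500 to below 600 held 25 members among 97 probes, and those below 100 held 18 among 96. In contrast, numbers from 700 to below 800 held 3 among 98 and those from 800 to below 900 held 3 among 99. Of the 100 members, 40 fell in 17 runs of 2 or 3 consecutive numbers. Position on the slide was uneven as well: spot row 8 of the printed blocks held 22 members among 60 probes, and rows 1 and 16 held 15 among 60 and 15 among 56, while rows 3, 4 and 12 held 1 each. The 4 block columns were closer to even, with 30, 23, 22 and 25 members among 250 probes each. How number and position relate to each other was not tested, and no source used here says what the numbers stand for.

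**Figure D2:**
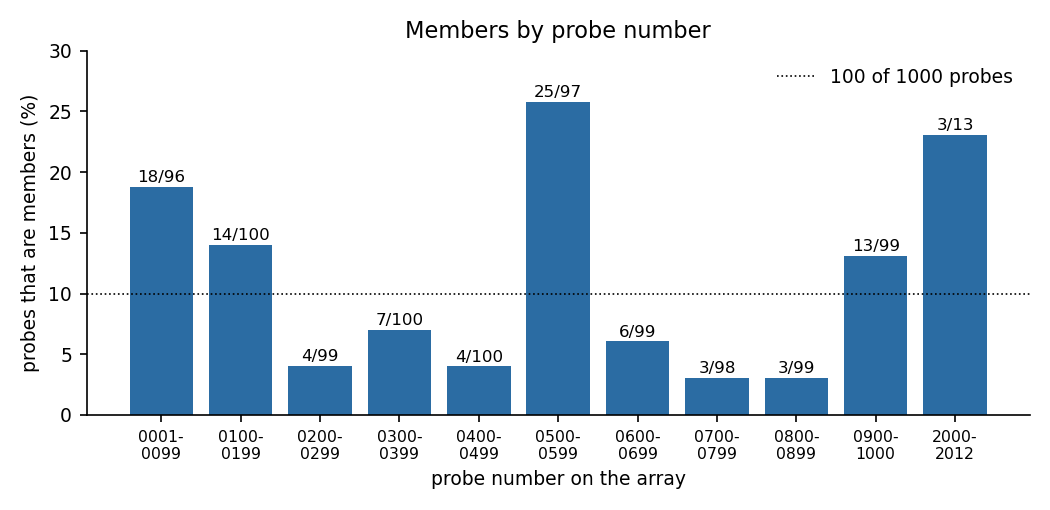
Share of probes that belong to the 100 brightest, in percent, for each block of probe numbers, with members over probes above each bar. Numbers from 500 to below 600 hold 25 of 97 and those from 700 to below 800 hold 3 of 98; the dotted line marks the 100 of 1000 over the whole array.

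Of the 100 probes, a116pe0012 and a116pe0026 differed most between lines and water regimes. Levels are given on the log2 scale after background correction and normalisation, with replicates 1 to 4 in order. In well watered kernels a116pe0012 read 14.70, 14.35, 13.96 and 14.52 in RIL60 and 15.50, 15.53, 15.20 and 14.88 in RIL78. It read 10.97, 10.14, 10.03 and 10.22 in RIL66 and 13.84, 11.81, 14.39 and 14.53 in RIL68. All 4 RIL66 arrays lay below all 12 arrays of the other lines. The corresponding readings of a116pe0026 were 14.09, 14.07, 14.44 and 13.93 in RIL60 and 13.14, 14.25, 13.27 and 13.76 in RIL78. They were 9.72, 8.41, 9.91 and 8.03 in RIL66 and 13.41, 11.09, 13.05 and 12.91 in RIL68. Here too every RIL66 array lay below every other array. In bulk tissue, fewer cells that contain a transcript and less of it per cell cannot be told apart.

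Under stress the same 2 probes were bright in RIL66. Stress levels of a116pe0012 were 15.66, 14.54, 14.80 and 15.06 in RIL66, against 13.00, 12.92, 11.97 and 12.68 in RIL60 and 15.56, 15.46, 15.32 and 15.32 in RIL78. Those of a116pe0026 were 14.74, 14.22, 14.51 and 14.59 in RIL66, 12.72, 12.43, 13.72 and 12.55 in RIL60 and 14.03, 14.45, 13.54 and 14.61 in RIL78. Every RIL66 stress reading lay above every RIL60 stress reading, and the RIL66 means of 15.01 and 14.52 stood beside 15.42 and 14.16 in RIL78. The rise in RIL66 was 25.5-fold for a116pe0012 (log2 ratio 4.67, SE 0.45, adjusted p = 9.78e-07) and 45.2-fold for a116pe0026 (5.50, SE 0.48, adjusted p = 3.8e-07), on 4 of 4 arrays each. For both, the well watered channel in RIL66 was above background on 3 of the 4 arrays. Without background correction the log2 ratios were 3.87 and 4.06, so the size of the folds moves with the background step. In RIL60 a116pe0012 fell by 1.74 (SE 0.45, adjusted p = 0.0442), on 4 of 4 arrays, and a116pe0026 stood at -1.28 (SE 0.48, adjusted p = 0.241).

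RIL68 did not give a single answer for this pair. Its stress levels were 12.99, 15.42, 12.90 and 13.67 for a116pe0012 and 12.70, 14.80, 12.30 and 12.14 for a116pe0026. On replicate 2 both probes were dim when well watered and bright under stress, with log2 ratios of 3.62 and 3.71, whereas the other 3 arrays were below 0 for both. Over all 4 arrays the responses were 0.11 (SE 0.45, adjusted p = 0.962) and 0.37 (SE 0.48, adjusted p = 0.84). Without replicate 2 a116pe0012 fell by 1.04 (SE 0.16, adjusted p = 0.00394) and a116pe0026 stood at -0.76 (SE 0.27, adjusted p = 0.242). Leaving that array out also narrows the spread that the fit shares over lines: the RIL60 values of a116pe0012 and a116pe0026 stayed at -1.74 and -1.28, with adjusted p = 1.71e-07 and 0.0023. In the file headers that array stands alone on its day, as do RIL60 replicate 3 and RIL66 replicate 3. For RIL68 replicate 2, deviations of the well watered levels from the 16-array means were set against those of other arrays, over the other 98 members. They correlated between 0.15 and 0.22 with the other RIL68 arrays and between -0.35 and 0.21 with RIL66. With RIL60 the range was -0.28 to -0.05 and with RIL78 -0.44 to 0.15. This is a description across probes that share these arrays, and the line of that array is not read from it. The deposited ratios are blank for both probes on that array.

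**Figure D3:**
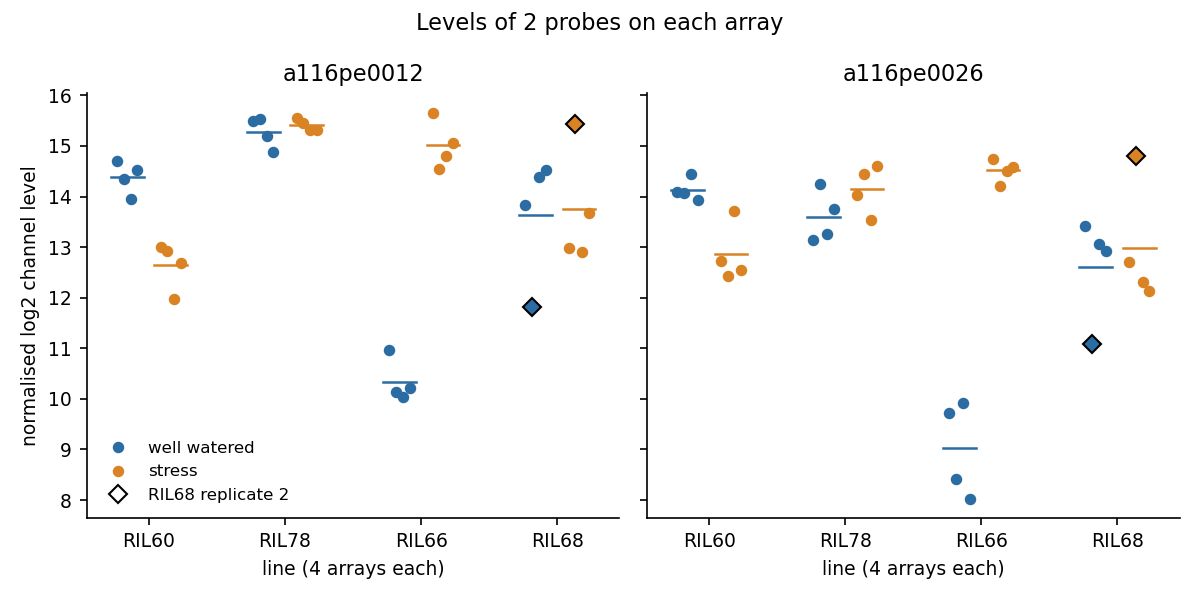
Normalised log2 level of a116pe0012 and a116pe0026 on each of the 16 arrays, well watered in blue and stress in orange, with a short line at each mean of 4 arrays and diamonds for RIL68 replicate 2. The RIL66 well watered points lie between 10.03 and 10.97 and between 8.03 and 9.91, below all other arrays, while its stress points reach at least 14.54 and 14.22.

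Apart from this pair, fitted responses of the members to stress stayed below 2-fold, as did those of most probes on the array. Since the well watered channel both chose the members and enters the ratio, a slight tilt of the ratios below 0 is built into the choice, and the medians are given without any reading. They were -0.03, -0.05, -0.03 and -0.04 in RIL60, RIL78, RIL66 and RIL68, against -0.01, 0.00, 0.02 and 0.01 over all probes. Ratios of the members varied less between arrays of a line, with a median SD of 0.22 against 0.29 for the other 900 probes. A change of 2-fold or more was fitted for 2 members in RIL60 and 2 in RIL66, a116pe0012 and a116pe0026 in both, and for 0 members in the other 2 lines. Over all probes the shares were 1%, 0.7%, 1.1% and 0.2% in RIL60, RIL78, RIL66 and RIL68. In total 23 of the 100 passed the test (limma, adjusted p under 0.05 over all 1000 probes) in at least 1 line and 77 in none. Over the whole array 121 of 1000 probes, or 12.1%, passed in at least 1 line. Counts of members under other settings, here and below, come without the share of all probes. Nothing is read from them about members against other probes.

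In RIL60, 4 of the 100 members passed, 2 higher and 2 lower, where 2.9% of all probes did. Probe a116pe0507 read log2 ratios of 1.13, 0.94, 0.18 and 0.28 and rose by 0.63 (SE 0.14, adjusted p = 0.0146). Probe a116pe0145 read 0.66, 0.87, 0.32 and 0.24 and rose by 0.52 (SE 0.12, adjusted p = 0.0174). Both were above 0 on all 4 arrays, with the higher readings where stress carried Cy5. Probe a116pe0240 read -0.82, -0.68, -0.24 and -0.24 and fell by 0.50 (SE 0.13, adjusted p = 0.0448), also with one sign on the 4 arrays, and a116pe0012 was the other fall. The calls were fragile. Without any one array of RIL60, a116pe0507 (adjusted p between 0.0506 and 0.15), a116pe0240 (0.171 to 0.238) and a116pe0012 (0.122 to 0.238) missed the threshold, as did a116pe0145 without replicate 1, 2 or 3 (0.0543 to 0.207). Leaving out RIL78 replicate 3, RIL66 replicate 2 or RIL66 replicate 3, whose spread enters the same fit, also ended both falls (0.0518 to 0.0596), and a116pe0012 also missed without RIL78 replicate 1 or 4 (0.0545 and 0.0503) and a116pe0240 without RIL66 replicate 1 or RIL68 replicate 1 or 2 (0.0522, 0.0561 and 0.0607). Dropping replicate 1, 2, 3 or 4 of this line left 0, 0, 0 and 1 members, and there were 2 without RIL78 replicate 3 or RIL66 replicate 2 or 3. With each array centred on its median in place of loess a116pe0507, a116pe0145 and a116pe0240 missed the threshold (0.0673, 0.0857 and 0.431), and without a dye term a116pe0507, a116pe0012 and a116pe0240 did (0.173, 0.0847 and 0.26). Scaling the arrays to one spread ended a116pe0012 (0.375), as did leaving out spots of 50000 or more (0.0583), and the replicate block or the day as a random block ended a116pe0240 (0.0764 and 0.0503). After median centring 0 members were higher and 1 lower, and after scaling the arrays to one spread 3 and 2.

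In RIL78, 16 of the 100 members passed, where 7.5% of all probes did. They were 8 higher, from 0.36 to 0.84, and 8 lower, from -0.80 to -0.44. Of the 16, 13 ranked between 51 and 100 by signal and 3 among the brightest 50. Probe a116pe0507 rose here too, with ratios of 1.10, 1.45, 0.32 and 0.39 (0.82, SE 0.14, adjusted p = 0.0016). Its readings were again higher where stress carried Cy5. Probe a116pe0049 rose by 0.84 (SE 0.18, adjusted p = 0.00754), reading 0.43, 0.40, 0.64 and 1.89. Both were above 0 on every RIL78 array, but a116pe0049 rested partly on replicate 4, without which it stood at 0.54 (adjusted p = 0.0867). The largest fall was that of a116pe0393, which read -0.46, -0.29, -0.77 and -1.68 (-0.80, SE 0.14, adjusted p = 0.00192), below 0 on 4 of 4 arrays. Next came a116pe0615 at -0.75, -0.16, -0.48 and -0.84 (-0.56, SE 0.12, adjusted p = 0.00593), a116pe0991 (-0.55, SE 0.13, adjusted p = 0.0137), a116pe0677 (-0.52, SE 0.12, adjusted p = 0.0102) and a116pe0559 (-0.51, SE 0.14, adjusted p = 0.0268), each below 0 on 4 of 4 arrays. The fall of a116pe0559 was read mainly with stress in Cy5 (-0.96 and -0.91), against -0.01 and -0.17 with stress in Cy3.

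Some of the rises in RIL78, like the fall of a116pe0559, were read mainly in one dye orientation. Probe a116pe0506 read 1.45 and 1.57 with stress in Cy5 and -0.02 and -0.11 with stress in Cy3 (0.72, SE 0.17, adjusted p = 0.0102). Probe a116pe0446 read 0.14 and 0.04 against 1.33 and 1.35 (0.71, SE 0.16, adjusted p = 0.0102), and a116pe0177 read 0.25 and -0.06 against 0.82 and 1.41 (0.61, SE 0.16, adjusted p = 0.0268). Over all lines a dye difference of more than 1 on the log2 scale was found for 2 members, a116pe0533 and a116pe0553, and for 9 of all probes. With RIL78 replicate 1, 2, 3 or 4 left out, 6, 9, 10 and 5 members passed, the share of all probes in these fits not being given. The calls of a116pe0507 and a116pe0393 held in each of these fits. Those of a116pe0615 (adjusted p = 0.057) and a116pe0049 ended without replicate 4. Those of a116pe0991 and a116pe0677 ended without replicate 1 or 4 (0.057 to 0.0867), that of a116pe0506 without 1 or 2 (0.0811 and 0.0695), that of a116pe0446 without 3 or 4 (0.0743 and 0.094), that of a116pe0177 without 1, 3 or 4 (0.0652 to 0.237) and that of a116pe0559 without 1, 2 or 4 (0.054 to 0.197). With each line fitted on its own arrays a116pe0049, a116pe0177, a116pe0615, a116pe0991, a116pe0677 and a116pe0559 missed the threshold (0.0515 to 0.0869). Median centring ended the calls of a116pe0506, a116pe0991, a116pe0677 and a116pe0559 (0.0553 to 0.0755), and a fit without a dye term those of a116pe0506, a116pe0446, a116pe0177 and a116pe0559 (0.0539 to 0.11). Probe a116pe0559 also missed with the spread of arrays scaled (0.0936) and with array weights (0.0983).

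In the susceptible lines the called members went one way in each, but with few calls and the tilt named above nothing is read from that. In RIL66, 4 members passed, all higher, where 2.6% of all probes passed. Besides a116pe0012 and a116pe0026, a116pe0978 rose by 0.78 (SE 0.13, adjusted p = 0.00136), reading 1.26, 0.54, 0.82 and 0.52, and a116pe0553 rose by 0.95 (SE 0.22, adjusted p = 0.0169), reading 0.87, 0.98, 1.25 and 0.71. All 8 readings lay above 0. Probe a116pe0978 missed the threshold with each line on its own arrays (0.0727). Probe a116pe0553 missed it without replicate 1 or 2 (0.131 and 0.139), with median centring (0.0633) and without a dye term (0.215), and it followed the dye in RIL60 and RIL78, where stress in Cy5 gave 0.98 to 1.87 and stress in Cy3 gave -0.48 to -0.16. After scaling of the spread the split was 4 higher and 1 lower, and the authors' deposited ratios gave 5 and 18.

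In RIL68, 3 members passed, all lower, where 0.7% of all probes passed. The tilt named above runs towards falls. Probe a116pe0599 read -0.93, -0.65, -0.85 and -0.78 and fell by 0.80 (SE 0.13, adjusted p = 0.00282). Probe a116pe0393 read -0.43, -0.51, -1.04 and -0.63 and fell by 0.66 (SE 0.14, adjusted p = 0.0405), and a116pe0166 read -0.20, -0.50, -1.11 and -0.65 and fell by 0.62 (SE 0.14, adjusted p = 0.0442). Each was below 0 on all 4 arrays. The first call held without any one of the 16 arrays, with a value of -0.48 without background correction. That of a116pe0393 ended without replicate 1, 2 or 3 of the line (0.137 to 0.212), and with RIL60 replicate 1, 2 or 4 or RIL78 replicate 1 left out (0.0552 to 0.0659), and that of a116pe0166 in 12 of the 16 such fits (0.0538 to 0.359), those without RIL60 replicate 3, RIL78 replicate 2 and RIL66 replicates 2 and 3 being the exceptions. The background step moved both: without correction a116pe0393 stood at -0.34 and a116pe0166 at -0.37 (0.171 and 0.0597), and with plain subtraction neither passed (0.123 and 0.0665). Both also missed with the deposited ratios (0.15 and 0.0522), without a dye term (0.151 and 0.122), with the replicate block (0.0684 and 0.0668) and when the line's arrays were fitted alone (0.0557 and 0.106). After scaling of the spread the split was 2 higher and 8 lower. The count was 1 in each fit without replicate 3 of the line, replicate 1, 2 or 4 of RIL60 or replicate 1 of RIL78.

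**Figure D4:**
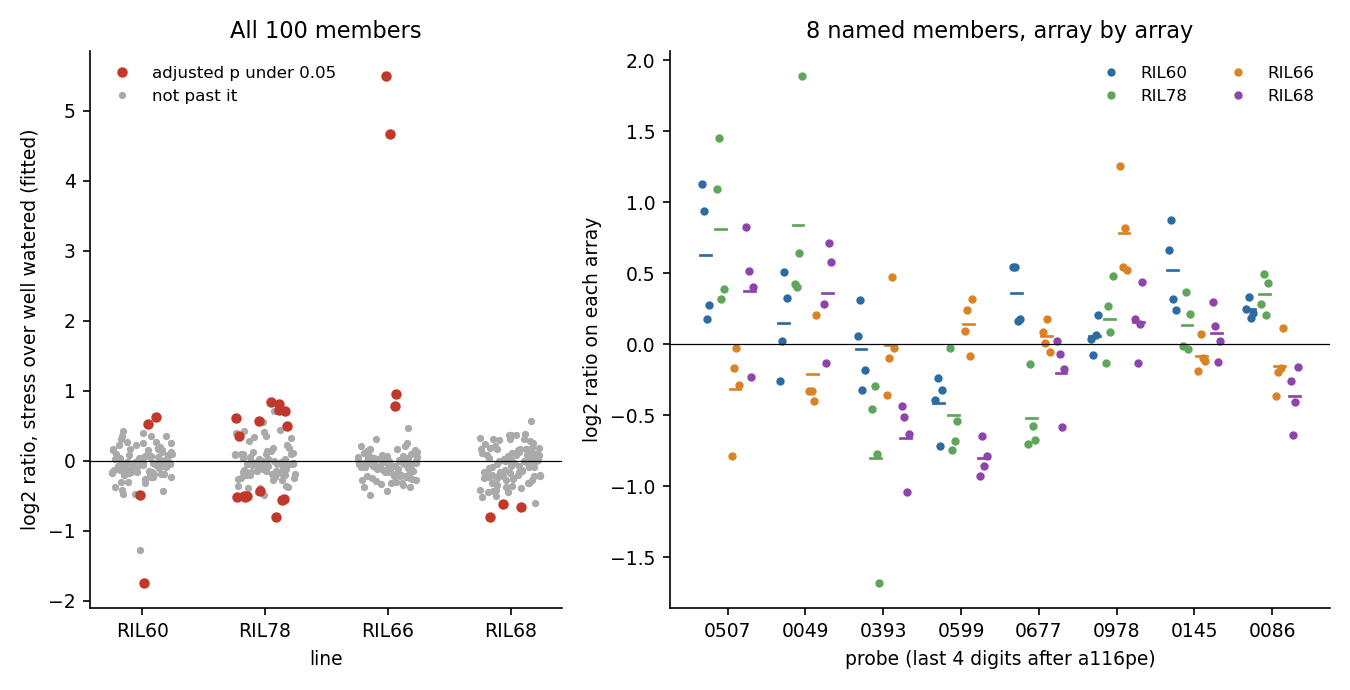
Left, fitted log2 ratio of stress over well watered for each of the 100 members in each line, with those past adjusted p 0.05 in red (4, 16, 4 and 3 members in RIL60, RIL78, RIL66 and RIL68). Right, log2 ratio on each of the 4 arrays of a line for 8 named members, with a short line at the mean; a116pe0507 lies above 0 on all arrays of RIL60 and RIL78, and a116pe0599 below 0 on all arrays of RIL68.

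Of the 23 members that passed, 19 did so in 1 line, 4 in 2 lines and 0 in 3 or 4. For all probes these counts were 106 in 1 line, 14 in 2, 1 in 3 and 0 in 4. Probe a116pe0507 rose in RIL60 and RIL78, a116pe0393 and a116pe0599 fell in RIL78 and RIL68, and a116pe0012 went down in RIL60 but up in RIL66. In RIL78 a116pe0599 read -0.02, -0.75, -0.68 and -0.54 (-0.50, SE 0.13, adjusted p = 0.0233). That call ended without RIL78 replicate 2, 3 or 4 (0.0979, 0.0909 and 0.084), with the spread of arrays scaled (0.0956) and with each line on its own arrays (0.11). All responses come from 1 fit, which shares the spread of a probe over the lines. One sign of the fitted response in all 4 lines was found for 31 of the 100 members, 7 above and 24 below 0, and for 189 of 1000 probes, without a test and with the tilt named above.

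Whether 2 lines of a class responded differently was tested directly. Between RIL60 and RIL78, 1 member passed, where 2.5% of all probes did. Probe a116pe0677 read 0.55, 0.55, 0.17 and 0.18 in RIL60. In RIL78 the readings were -0.70, -0.14, -0.57 and -0.67. The difference was 0.88 (SE 0.17, adjusted p = 0.00451), with no overlap between the lines. This call held in all 30 other settings. The count was 4 without RIL78 replicate 2, 3 without RIL68 replicate 2, and 2 without RIL78 replicate 3, RIL66 replicate 4 or RIL68 replicate 3. In the fit without RIL68 replicate 2 the added members were a116pe0012 (-1.88, SE 0.19, adjusted p = 1.32e-05) and a116pe0026 (-1.83, SE 0.33, adjusted p = 0.00242), chosen after their values were seen. Between RIL66 and RIL68, 3 members passed, where 1% of all probes did, and all 3 were higher in RIL66. For a116pe0026 the difference was 5.13 (SE 0.68, adjusted p = 0.000389) and for a116pe0012 4.57 (SE 0.64, adjusted p = 0.000426). Without RIL68 replicate 2 these were 6.25 and 5.72. The well watered channel, which chose the members, enters both: its levels in RIL66 minus RIL68 differed by -3.60 and -3.30. Both probes are members through the lines other than RIL66, so their differences are a description. Probe a116pe0599 read 0.09, 0.24, -0.08 and 0.32 in RIL66, above all 4 RIL68 arrays, a difference of 0.95 (SE 0.18, adjusted p = 0.00847). Without background correction that difference was 0.60, and with the deposited ratios also 0.60. With the header day as a block its adjusted p was 0.0789. The 1 day that held both lines leaves 1 array of RIL66, so the fit within it (0.724) says nothing either way. After scaling of the spread 2 members were higher and 5 lower, and a116pe0026 and a116pe0012 missed the threshold (0.077 and 0.13). Without RIL66 replicate 2 the count was 5.

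Across the 4 lines taken as units, 0 of the 100 members passed, as did 0% of all probes. By limma the smallest adjusted p of a member was 0.551. An unadjusted p under 0.05 was reached by 19 members and by 9% of all probes. The tilt named above enters these ratios. The largest statistics among members belonged to a116pe0533 (mean 0.47, SE 0.11) and a116pe0553 (0.54, SE 0.14) above 0 and to a116pe0115 (-0.29, SE 0.09) and a116pe0240 (-0.31, SE 0.10) below 0. The first 2 are the members that followed the dye: a116pe0533 averaged -0.33 with stress in Cy5 and 1.27 with stress in Cy3, and a116pe0553 averaged 1.08 and -0.01. The class test, tolerant against susceptible with 2 lines each, also called 0 members and 0% of all probes (limma, smallest adjusted p = 0.818). Here 5 members and 5.5% of all probes had an unadjusted p under 0.05. The largest statistics were those of a116pe0086 (0.56, SE 0.17) and a116pe0507 (0.69, SE 0.25), higher in the tolerant lines, and of a116pe0013 (-0.39, SE 0.16) and a116pe0012 (-3.19, SE 1.32). Probe a116pe0086 read between 0.19 and 0.49 on the 8 tolerant arrays and between -0.64 and 0.12 on the 8 susceptible arrays, below 0 on 7 of them. No day in the file headers held both classes, so day and class cannot be told apart.

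The well watered levels of the members were also set side by side between the 2 lines of each class. The same channel chose the members, and a probe can enter the list through the lines in which it is bright, so these differences are a description and nothing is read from the counts. The members named are those past an adjusted p of 0.05 in limma's fit over all probes. Between RIL60 and RIL78 they were 11 of the 100, 7 higher and 4 lower in RIL60, where the share of all probes was 10.2%. Probe a116pe0987 read 12.38, 12.55, 12.66 and 12.62 in RIL60 and 11.47, 11.49, 10.08 and 10.68 in RIL78, which differ by 1.63 (SE 0.31). Probe a116pe0047 read 14.57, 14.57, 14.52 and 14.40 against 13.36, 13.97, 12.97 and 12.88 (1.22, SE 0.25). In the other direction a116pe0057 read 11.35, 11.28, 11.76 and 12.07 in RIL60 and 13.15, 13.24, 12.81 and 13.16 in RIL78 (-1.47, SE 0.26). The lines did not overlap for any of these 3 probes.

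The stress channel of the same arrays gave the same order for these 3 probes. Both channels are read from the same spots, so this order is not independent of the one above. Mean stress levels in RIL60 and RIL78 were 12.78 and 11.49 for a116pe0987, 14.20 and 13.22 for a116pe0047, and 12.05 and 12.93 for a116pe0057. Higher in well watered RIL60 were also a116pe0446 (1.51, SE 0.40), a116pe0247 (1.34, SE 0.41) and a116pe0240 (1.29, SE 0.31), and lower were a116pe0546 (-1.28, SE 0.27), a116pe0535 (-1.04, SE 0.28) and a116pe0025 (-0.73, SE 0.21). The last of these was -0.39 with levels centred on each array's median and -0.48 without spots of 50000 or more. Within the day that held 3 arrays of RIL60 and 4 of RIL78 the count was 6 members. It was also 6 without RIL60 replicate 3, and 7 without its replicate 2.

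Between RIL66 and RIL68 the members past that threshold were 6, 2 higher and 4 lower in well watered RIL66, where the share of all probes was 5.1%. The differences of the pair described above were -3.60 (SE 0.46) for a116pe0026 and -3.30 (SE 0.42) for a116pe0012, and -4.12 and -3.91 without RIL68 replicate 2. Both probes are members through the other 3 lines. Probe a116pe0535 was higher, with 14.59, 14.47, 14.06 and 14.08 in RIL66 and 12.16, 13.44, 12.39 and 11.98 in RIL68 (1.81, SE 0.28), and the lines did not overlap. Its mean stress levels were 14.41 and 12.58, in the same order but read from the same spots. Probe a116pe0996 read 11.75, 12.07, 11.65 and 12.15 in RIL66 and 13.33, 14.27, 12.76 and 13.29 in RIL68 (-1.51, SE 0.28), again without overlap. Next were a116pe0387 (-1.24, SE 0.28) and a116pe0064 (0.87, SE 0.24), and a116pe0064 was also higher in RIL60 than in RIL78. With the day as a block the count was 3. The 1 day that held both lines leaves 1 array of RIL66, so the fit within it says nothing either way.

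**Figure D5:**
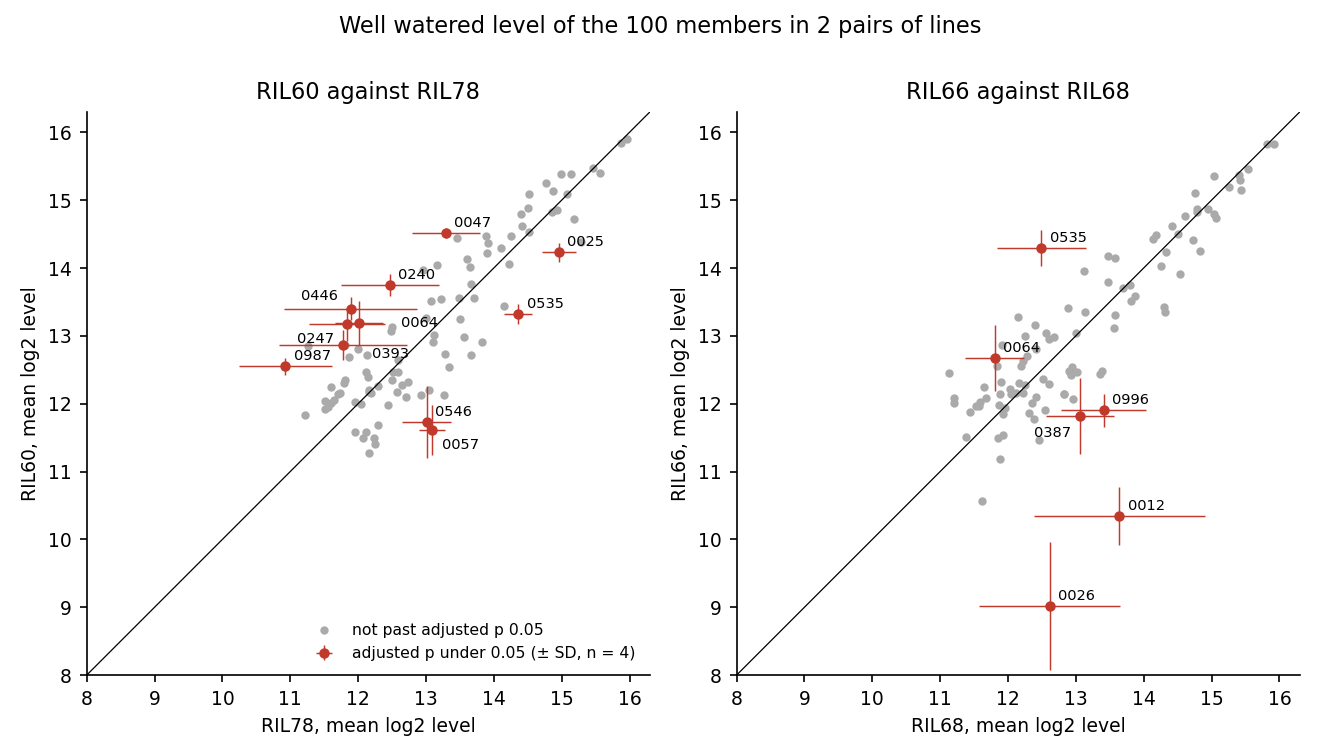
Mean well watered log2 level of the 100 members in RIL60 against RIL78 and in RIL66 against RIL68 (4 arrays each), with the diagonal of equal levels. Red points, past adjusted p 0.05 over all probes, mark the members eligible to be named and carry bars of 1 SD; a116pe0012 and a116pe0026 lie far below the diagonal in RIL66, at 10.34 and 9.02.

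Over the 4 lines, the median SD of the line means of the members was 0.36 on the log2 scale, and for 37 of the 100 the highest and lowest line means differed by more than 1. The SD was largest for a116pe0026 (2.30), a116pe0012 (2.15), a116pe0114 (0.98), a116pe0535 (0.89) and a116pe0533 (0.78). The level of a116pe0114 was 12.64 ± 0.15 in RIL60 and 12.59 ± 0.79 in RIL78, against 10.57 ± 0.96 in RIL66 and 11.62 ± 0.63 in RIL68 (SD, n = 4 arrays), so RIL60 and RIL78 did not differ beyond their spread. For a116pe0533 the arrays of RIL78 ran from 9.41 to 12.49 and those of RIL68 from 8.60 to 12.13, wider than the line means, which ran from 11.21 to 12.85. The SD was smallest for a116pe0107, a116pe0986, a116pe0538, a116pe0894 and a116pe0575. Of these, a116pe0986, a116pe0894 and a116pe0575 came close to the scanner maximum on 16, 15 and 8 arrays. The other 2 did so on 0 arrays: a116pe0107 had line means from 12.13 to 12.17, with single arrays between 11.29 and 12.98, and a116pe0538 had line means from 14.82 to 14.95, with single arrays between 14.22 and 15.29.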

How the data were processed

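Kernel RNA was measured on 16 2-colour arrays with 2048 spots each, 1000 probes in 2 spots and 48 control spots. Per the file headers, a ScanArray scanner gave the linear intensity and local background that the authors deposited for each spot and channel; the signs follow the dyes in the labels, which matched the headers on all 16 arrays. The authors' mark removed 106 probe spots. The authors also deposited log2 ratios, with no account of the steps in the sources used here. Matched by slide position and sorted name, they correlated with the ratios computed here at 0.88 to 0.99 per array. That sets their direction at stress over well watered and their medians near 0 (-0.000722 to 0.00144). Their scale stays unknown, with slopes of 0.46 to 0.97 over the members. They served as an alternative.

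Members came from log2 of intensity minus background, limit 50, 2 spots averaged. For tests, intensities were corrected with normexp (offset 50) and loess in limma 3.58.1 (R 4.3.3), with control and marked spots at weight 0. Channel levels came after Aquantile scaling. One fit to 16 arrays held a term per line and one for dye; the common and class tests used 4 line means. Line differences in well watered level come from the channel that chose the members and are descriptive. Benjamini-Hochberg adjustment ran over 1000 probes, at a threshold of 0.05. The fits were tested on simulated data. Within-array normalisation hides a shift of all probes. The number of arrays and signal over background limit the precision.

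The members, comparisons and lists were chosen with earlier results of these data known. Named are the 10 brightest probes, ranks 98 to 103, up to 5 members per direction past each test by size (where 0 passed, 2 per direction by statistic), the 5 most and 5 least variable over lines, and those called in 2 lines. Gene lists could not be matched to probes. Alternatives changed background, normalisation, filters, saturated spots, dye term, blocks, weights and arrays left out.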

Additional observations from a re-analysis of the deposited data

Results flagged for a closer look

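On RIL68 replicate 2, the log2 ratio of a116pe0026 was 3.71 where the other 3 arrays of the line lay between -0.77 and -0.71, and that of a116pe0012 was 3.62 where the others lay between -1.49 and -0.85. Both readings stood out from the other 3 arrays by more than the 95% critical value for a group of 4. On RIL78 replicate 4, a116pe0049 read 1.89 where the other 3 arrays lay between 0.40 and 0.64. Such gaps were looked for in 80 groups of 4 arrays and found in 3, no more than the about 1 in 20 that chance alone gives. The readings of a116pe0026 and a116pe0012 fell on the same array, and the ratios of these probes correlated at 0.98 over the 16 arrays.

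The stress response differed between lines of a class for 4 members. Between RIL60 and RIL78, a116pe0677 differed by 0.88 (limma's adjusted p = 0.00451), higher on 4 of 4 arrays of RIL60 and lower on 4 of 4 of RIL78. Between RIL66 and RIL68 the differences were 5.13 for a116pe0026, 4.57 for a116pe0012 and 0.95 for a116pe0599 (limma's adjusted p = 0.000389, 0.000426 and 0.00847). For a116pe0026 and a116pe0012 the well watered channel, which chose the members, enters the difference, so these values are a description. The causes of the differences were not tested.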

How the results depend on the processing

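Of 323 recomputed counts of members, 257 stayed within 1.5 times the value reported, and the cause of the other changes was not tested. Among the 257 are recounts of the common and class tests that stayed at 0. The share of all probes called under each setting is not given here, so nothing is read from these counts about members against other probes. Without background correction the members called were 14 in RIL60, 27 in RIL78, 3 for RIL60 minus RIL78 and 9 for RIL66 minus RIL68. With plain subtraction they were 13, 27, 3 and 8, and 7 in RIL66. With median centring they were 1 in RIL60, 7 in RIL78 and 6 in RIL68. With the spread of arrays scaled they were 10 in RIL78, 10 in RIL68 and 7 for RIL66 minus RIL68. The filter to probes above background on at least 8 arrays gave 5 in RIL68, 2 for RIL60 minus RIL78 and 5 for RIL66 minus RIL68. The deposited ratios gave 15 in RIL60, 28 in RIL78, 23 in RIL66, 5 for RIL60 minus RIL78 and 13 for RIL66 minus RIL68. Without a dye term there were 1 in RIL60, 7 in RIL78 and 1 in RIL68. Array weights gave 18 in RIL60, 7 in RIL68, 2 for RIL60 minus RIL78 and 21 for the well watered level of RIL60 minus RIL78. With each line on its own arrays there were 11 in RIL60, 6 in RIL78 and 1 in RIL68. For well watered levels, centring on each array's median gave 7 for RIL60 minus RIL78 and 3 for RIL66 minus RIL68, the day as a block 7 and 3, and the shared day alone 6 and 2, the 2 resting on 1 array of RIL66; both day settings gave 3 for the response of RIL60 minus RIL78.

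With the replicate number as a block the members called were 3 in RIL60, 15 in RIL78, 4 in RIL66, 1 in RIL68, 1 and 3 for the response differences and 10 and 5 for the well watered levels, although the numbers do not pair the samples: residuals of same-numbered arrays correlated between -0.29 and 0.34 over the pairs of lines, and 0 to 2 of 4 arrays of a line correlated best with their own number. Leaving out 1 array gave 0 to 5 in RIL60, 5 to 20 in RIL78, 3 to 5 in RIL66, 1 to 3 in RIL68, 1 to 4 and 3 to 5 for the response differences, 6 to 14 and 4 to 9 for the well watered levels, 0 for the common and class tests, and kept 98 to 100 of the members. Other rules for the list, among them the stress channel, 1 dye or 1 line, kept 86 to 100.

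For named members, 1247 of 1417 recomputed results kept direction and side of the threshold, 170 missed it and 0 reversed. Part of this was fixed in advance by the balanced design. The dye term, the replicate block or an array of another line does not move the value of a line's response. For a116pe0240 in RIL60 it stayed at -0.50 in these settings. Leaving out spots of 50000 or more, a setting chosen after seeing the data, moved no count by over 1.5 times, but it ended the call of a116pe0012 in RIL60 (adjusted p = 0.0583) and moved the well watered level difference of a116pe0025 from -0.73 to -0.48 (0.175). At 4 arrays per line, small responses near the scanner maximum or near background cannot be measured.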

Other observations

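Probes a116pe0012 and a116pe0026 took ranks 38 and 60 by mean well watered signal although both were dim in well watered RIL66. They are members through the other 3 lines.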
